A study of Bubalus bubalis with 12 samples.

Results

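The genes described here encode secreted signals, receptors, antagonists and mediators of the WNT, BMP and FGF pathways, examined in buffalo (Bubalus bubalis) sperm chromatin. They were chosen by name: a gene symbol beginning with WNT, FZD, BMP, FGF, NOTCH, SFRP, DKK, GLI or SMAD and a digit, or GREM1, with at least 2 non-control probes and not on chromosome X. Of 47 matching symbols, 9 had 1 probe (BMP10, FGF1, FGF2, FGF5, FZD4, GLI2, NOTCH4, SMAD1 and WNT16) and 2 lay on X (FGF13 and FGF16), which left 36 genes of the 6805 measured. No NOTCH and no GLI gene met the rule, so the set holds no NOTCH receptor and no Hedgehog mediator. It comprises 18 ligands (10 WNT, 4 BMP and 4 FGF), 3 intracellular FGF homologues, 4 frizzled receptors, 7 secreted antagonists and 4 SMAD proteins. The antagonists were assigned by family name (DKK, SFRP and GREM1), not by the action of each protein.

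Spermatozoa came from cryopreserved semen of 3 high-fertile bulls (HF2, HF3 and HF5) and 3 subfertile bulls (SF1, SF4 and SF5); how fertility was scored and the ages of the bulls are not given in the sources used here. Chromatin of each bull was precipitated with antibodies to H3K4me2 or H3K27me3, and each precipitate was hybridised beside the same bull's input DNA, which gave 12 arrays, 1 per bull and mark. The precipitate always carried the red dye and the input the green dye, so a dye effect is part of every ratio and is shared by all arrays. No array with a control antibody was analysed here, so background precipitation was not measured. The probes follow cattle sequence (build HGSC Btau_3.1), and mismatches with buffalo DNA were not tested. A gene's value is the mean over its probes of log2(ChIP/input), with the median probe of each array set to 0.

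WNT ligands bind frizzled receptors and their co-receptors and act through β-catenin or other routes. BMP ligands act through serine/threonine kinase receptors and SMAD proteins, and secreted FGFs act through tyrosine kinase receptors. Many DKK and SFRP proteins restrain WNT signals and GREM1 binds BMP ligands. In embryonic stem cells the promoters of many such developmental regulators carry a methylated H3K4 together with H3K27me3, a bivalent state. In mammalian sperm a small share of the genome keeps nucleosomes, and promoters of developmental genes have been described among the regions that keep them. H3K4 methylation generally marks active or poised promoters and H3K27me3 marks Polycomb repression.

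No gene of the 36 passed adjustment between high-fertile and subfertile bulls in either mark, and none of the 6805 did (limma, Benjamini-Hochberg adjusted p below 0.05; 0% of genes called in either direction). WNT6 alone among the 36 had an unadjusted p below 0.05, for H3K4me2, against 2.91% of all genes. Its H3K4me2 was 1.58 log2 units higher in high-fertile bulls. The difference in its ChIP signal, without division by input, rested on HF5. With the mean input of all bulls in place of each bull's own, the WNT6 groups overlapped. WNT3 and FZD10 were looked at along the gene after their values were seen. At WNT3, stretches set by probe spacing had H3K4me2 differences of opposite sign, and in the second stretch the groups overlapped. At FZD10, the 14 probes with an unadjusted limma p below 0.05 for H3K4me2 lay within 112 bases, and none passed adjustment. No gene of the set passed adjustment as above or below the array median in either mark.

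Sequences under the probes that these results turn on are given first. All were read from the probe sequences on the array, and stretches longer than 60 bases were joined from overlapping probes. In 841 of 841 overlapping pairs of the 36 genes' probes, the sequences overlapped in the direction of rising coordinates, which sets their orientation. CG dinucleotides, the sites of vertebrate DNA methylation and the basis of CpG islands, are in capitals.
WNT6, all 5 probes, chr2:111234590-111234661: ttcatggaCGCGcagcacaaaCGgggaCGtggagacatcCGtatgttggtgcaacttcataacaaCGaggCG
WNT11, 7 island probes, chr15:55179995-55180085: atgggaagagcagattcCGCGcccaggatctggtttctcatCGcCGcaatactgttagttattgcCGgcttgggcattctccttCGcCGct
WNT3, first stretch, chr19:46849151-46849210: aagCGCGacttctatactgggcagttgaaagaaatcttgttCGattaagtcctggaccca
WNT3, second stretch, chr19:46852240-46852299: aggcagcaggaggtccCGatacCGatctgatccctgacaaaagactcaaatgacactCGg
FZD10, chr17:49447096-49447155: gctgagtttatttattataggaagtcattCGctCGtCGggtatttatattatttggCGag
WNT2B, chr3:33329212-33329271: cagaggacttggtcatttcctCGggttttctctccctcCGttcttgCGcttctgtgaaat
FGF8, last 8 probes, chr26:22816657-22816745: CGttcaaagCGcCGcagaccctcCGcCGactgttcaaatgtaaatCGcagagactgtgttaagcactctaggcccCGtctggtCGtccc
GREM1, chr10:29541446-29541505: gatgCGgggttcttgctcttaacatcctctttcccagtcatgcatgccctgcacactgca
SMAD9, first promoter probe, chr12:24463761-24463820: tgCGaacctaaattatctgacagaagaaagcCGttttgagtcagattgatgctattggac
SMAD9, second promoter probe, chr12:24466676-24466735: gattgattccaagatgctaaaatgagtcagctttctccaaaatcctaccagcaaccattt

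These sequences differ in composition. The WNT6 stretch of 72 bases holds 7 CG sites and 54.2% G and C, the WNT11 stretch of 91 bases holds 7 and 54.9%, and the FGF8 stretch of 89 bases holds 8 and 57.3%. The FZD10 probe holds 4 CG sites in a sequence of only 36.7% G and C. The 2 SMAD9 probes, of the promoter class, hold 2 and 0 CG sites, with 40% and 38.3% G and C. The WNT3, FZD10, WNT2B and GREM1 probes were taken for their values: the lowest mean H3K27me3 of the first WNT3 stretch, the highest of the second, the smallest p of FZD10, the most negative group difference among WNT2B island probes, and the widest gap between marks in GREM1.

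The 36 genes carried 1004 probes, of which 92.3% were CpG island probes, against 85.8% over all 6805 genes. Their probes held 49.3% G and C on average (49.8% over all genes), and a gene had 21.5 probes in the median (2 to 96), against 8 over all genes. Taken as separate where more than 1000 bases lay between probes, they formed 67 stretches, and 14 genes had a single one. All 36 symbols stand in the buffalo RefSeq gene table (assembly NDDB_SH_1), used here for names and gene order only.

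Depth on an array is brightness. The median signal per array was 622 to 742 in the ChIP colour and 645 to 815 in the input colour, and at least 93.9% of probes were well above background in either colour. Arrays of different bulls had little in common: over the 36 genes, r between bulls for the same mark ranged from -0.34 to 0.29 for H3K4me2 (median -0.10) and from -0.35 to 0.35 for H3K27me3 (median -0.004), each over 15 pairs of bulls. Over all genes the median r was 0.003 for H3K4me2 and 0.008 for H3K27me3, and HF5 with SF5 gave 0.27 for H3K4me2. The ratio also followed probe composition on some arrays. On the H3K4me2 arrays of HF5 and SF5 the 10% of probes richest in G and C stood 1.05 and 0.96 log2 units above the poorest 10%. On the H3K27me3 arrays of the same bulls the gap was 0.81 and 0.30. Of the genes listed as cell type markers, 6 of 15 sperm and spermatid genes were measured, including TNP1 and ODF1. So were 5 of 10 leukocyte, 4 of 7 epithelial and 2 of 10 somatic testis genes. All 6 sperm genes had lower H3K4me2 in high-fertile bulls (median difference -0.52), against 51.8% of all genes. At 2 of them, TEKT3 and ROPN1L, the unadjusted p was below 0.05 (limma, adjusted p 1.00), against 1.22% of all genes in that direction. For H3K27me3, 5 of the 6 were lower, against 49.3% of all genes, and 1 was higher. For H3K4me2 the leukocyte genes were higher at 2 and lower at 3, and the epithelial genes at 2 and 2. The somatic testis genes were higher at 1 (0.02) and lower at 1 (HSD3B1, -1.49, limma unadjusted p 0.0175). The sperm list had per-bull medians of 0.07 (HF2), -0.41 (HF3), -0.39 (HF5), 0.23 (SF1), 0.02 (SF4) and 1.26 (SF5); their part in the results below was not tested.

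**Figure D1:**
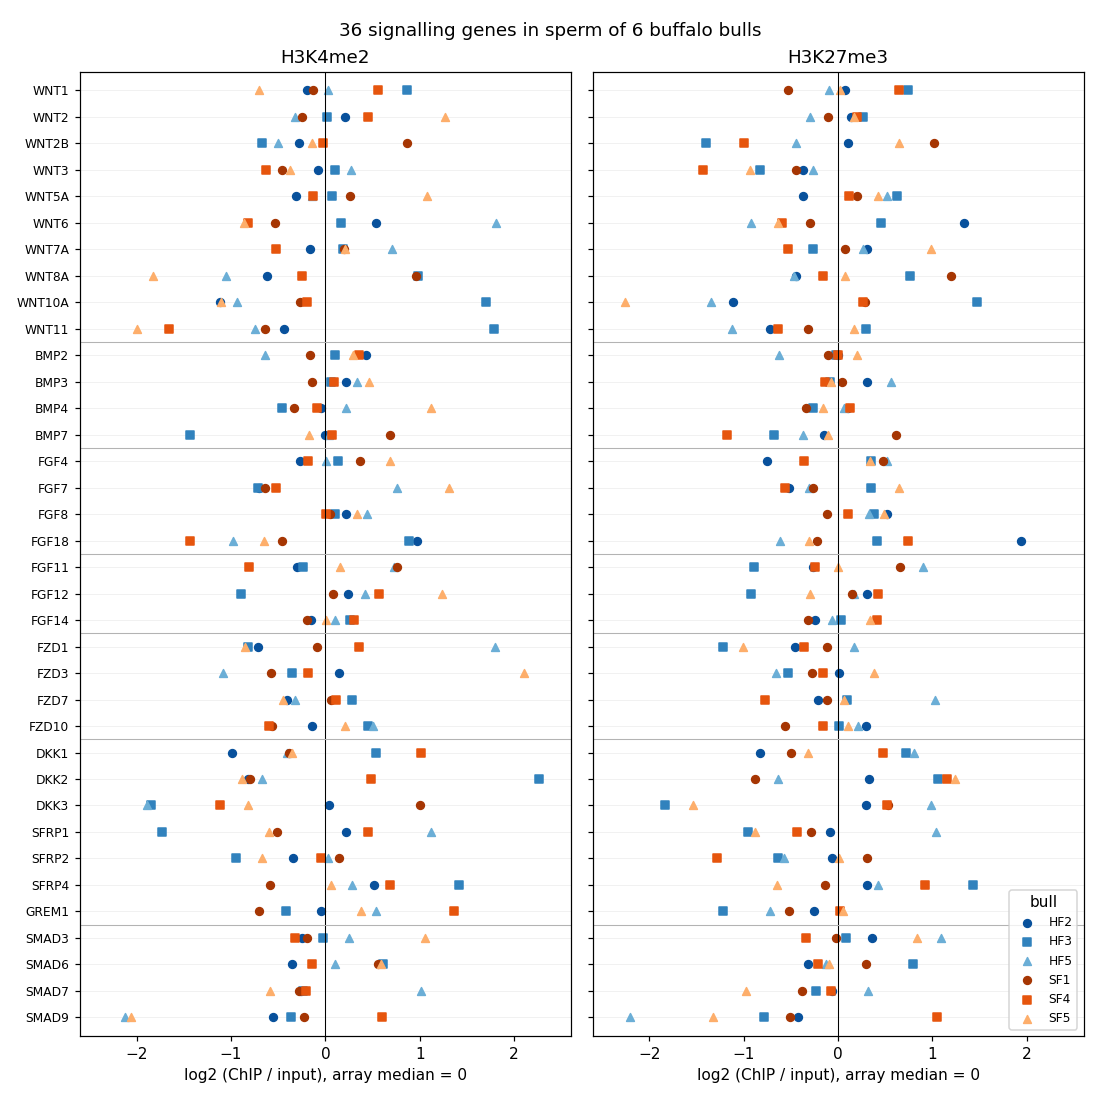
Each row is 1 of the 36 genes and each point 1 bull (blue high-fertile, orange subfertile); the x axis is the gene's log2(ChIP/input) with the array median at 0, for H3K4me2 (left) and H3K27me3 (right). Rows are grouped as WNT, BMP, FGF ligands, intracellular FGF homologues, FZD, antagonists and SMAD. FGF8 alone lies above 0 in all 6 bulls for H3K4me2 and WNT3 alone lies below 0 in all 6 for H3K27me3.

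The first comparison asked whether H3K4me2 in sperm differed with fertility at these genes. High-fertile bulls had the higher mean at 18 genes, against 48.2% of all genes, and the lower at 18, against 51.8%, with a median difference of -0.01 (all genes -0.02). At an unadjusted p below 0.05 there was 1 gene of the 36 higher, against 1.69% of all genes, and 0 lower, against 1.22% (2.91% in either direction). High-fertile and subfertile values were fully apart at 3 of the 36 genes, against 6.58% of all genes: WNT6 and WNT3 were higher (3.48% of all genes) and WNT2B lower (3.1%). A count of 3 in 36 lies near that background. With 3 bulls per group, the half-width of the 95% interval was 1.17 log2 units in the median gene of the set. A smaller difference in such a gene has an unadjusted p above 0.05. Adjustment over 6805 genes asks for more: differences from -3.77 to 3.53 occurred over all genes and none passed.

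Among the ligands, WNT6 had the smallest p. For H3K4me2, HF2 gave 0.54, HF3 gave 0.16 and HF5 gave 1.80, while SF1 gave -0.54, SF4 -0.82 and SF5 -0.86. All 3 high-fertile bulls lay above 0 and all 3 subfertile bulls below it, with HF5 far above the others. The group means were 0.84 ± 0.86 and -0.74 ± 0.18 (SD, n = 3 each), a difference of 1.58 (95% interval 0.40 to 2.76; limma, unadjusted p 0.0145, adjusted p 1.00). Without HF5 the difference was 1.09. Its 5 probes, 4 of the island class and 1 coding, overlap within the 72 bases printed above and so measure 1 short piece of DNA. The ChIP signal alone, without division by input, was 1.01 higher in high-fertile bulls, and this rested on HF5: it was -1.10, -0.51 and 2.20 in the high-fertile bulls and -0.16, -1.31 and -0.97 in the subfertile ones. The input signal was 0.60 lower in high-fertile bulls, with HF2 lowest, -1.69 against the array median. With the mean input of the 6 bulls in place of each bull's own, the difference was 1.05 (unadjusted p 0.237) and the groups overlapped, with -0.66, -0.16 and 2.57 against 0.14, -0.98 and -0.55.

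WNT11, a ligand of β-catenin-independent WNT signalling, had the largest difference, 1.63 (95% interval -0.01 to 3.27; unadjusted p 0.0512). HF2, HF3 and HF5 gave -0.44, 1.78 and -0.75, and SF1, SF4 and SF5 gave -0.64, -1.66 and -2.00. The groups overlapped, since HF5 lay below SF1, and the high-fertile mean (0.20 ± 1.38, SD, n = 3) rested on HF3. Without HF3 the difference was 0.84, and between HF5 and SF1, which shared a slide, it was -0.11. In HF3 the input signal at WNT11 was -1.52, the lowest of the 6 bulls. The 7 island probes lie in the 91 bases printed above; the remaining probe, of the promoter class (chr15:55185319-55185378), gave 0.07 in HF3.

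FGF18, a secreted FGF of skeletal and lung growth, had values of 0.97, 0.88 and -0.98 in the high-fertile bulls and -0.46, -1.44 and -0.65 in the subfertile ones. HF5 lay below SF1 and SF5. The difference was 1.14 (unadjusted p 0.0971), 1.78 without HF5, 0.45 with the mean input and -0.52 between the 2 bulls of the shared slide. Its input was -2.26 in HF3.

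WNT3 had smaller but separated values. They were -0.08, 0.10 and 0.27 in the high-fertile bulls and -0.45, -0.63 and -0.37 in the subfertile ones, with no overlap. The difference was 0.58 (95% interval -0.32 to 1.48; unadjusted p 0.176), and 0.50 with the mean input. WNT2B was the gene with the groups apart the other way: -0.28, -0.67 and -0.50 against 0.87, -0.02 and -0.14. Its difference was -0.72 (95% interval -1.74 to 0.31; unadjusted p 0.146). Without SF1 it was -0.40, and with the mean input it was -0.14 and the groups overlapped. SF1 stood apart from the other 2 subfertile bulls there, and the input of SF1 at WNT2B was the lowest, -0.63. At the island probe printed above the group means were -1.09 (high-fertile) and 0.32 (subfertile).

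The remaining WNT genes gave differences between -0.53 (WNT2 and WNT5A) and 0.40 (WNT10A). BMP7 was 0.66 lower, with HF3 at -1.44 and the other high-fertile bulls near 0. The HF3 input at BMP7 was 0.55, and the ChIP signal alone differed by -0.25. BMP2, BMP3 and BMP4 differed by -0.20, 0.07 and -0.33. The intracellular homologue FGF12, which modulates voltage-gated sodium channels and is not secreted, was 0.71 lower. Its input was 0.44 higher in high-fertile bulls, with HF3 at 1.47, and its ChIP signal alone differed by -0.28.

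Of the receptors, FZD10 was 0.59 higher and FZD3 0.88 lower in high-fertile bulls (unadjusted p 0.221 and 0.259). FZD3 rested on SF5 (-0.05 without it), at 2.11, with the other 5 bulls between -1.09 and 0.14; it has 2 probes and the brightest input of the 36 genes, 3.38 above the array median. FZD1 and FZD7 differed by 0.29 and -0.05. FZD1 showed 1 bull apart as well, HF5 at 1.80.

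Among the antagonists, SFRP4 was 0.69 higher and DKK3 0.92 lower (unadjusted p 0.218 and 0.242). At SFRP4 the input was 0.74 lower in high-fertile bulls, and with the mean input the difference was 0.05. DKK3, with 2 probes, ranged from -1.89 in HF5 to 1.00 in SF1, and its input was 1.10 higher in high-fertile bulls; with the mean input the difference turned to 0.34. DKK2, an antagonist or weak agonist of the WNT co-receptor, reached 2.27 in HF3 and lay between -0.89 and 0.48 in the other bulls; 27 of its 28 probes lie within 171 bases, and the HF3 input there was -1.95 for the gene. GREM1 differed by -0.32, with SF4 at 1.36 and SF1 at -0.70. Of the SMAD genes, the inhibitory SMAD7 was 0.53 higher and SMAD6 0.22 lower, the receptor-activated SMAD3 was 0.19 lower and SMAD9 0.45 lower, and none had an unadjusted p below 0.05.

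**Figure D2:**
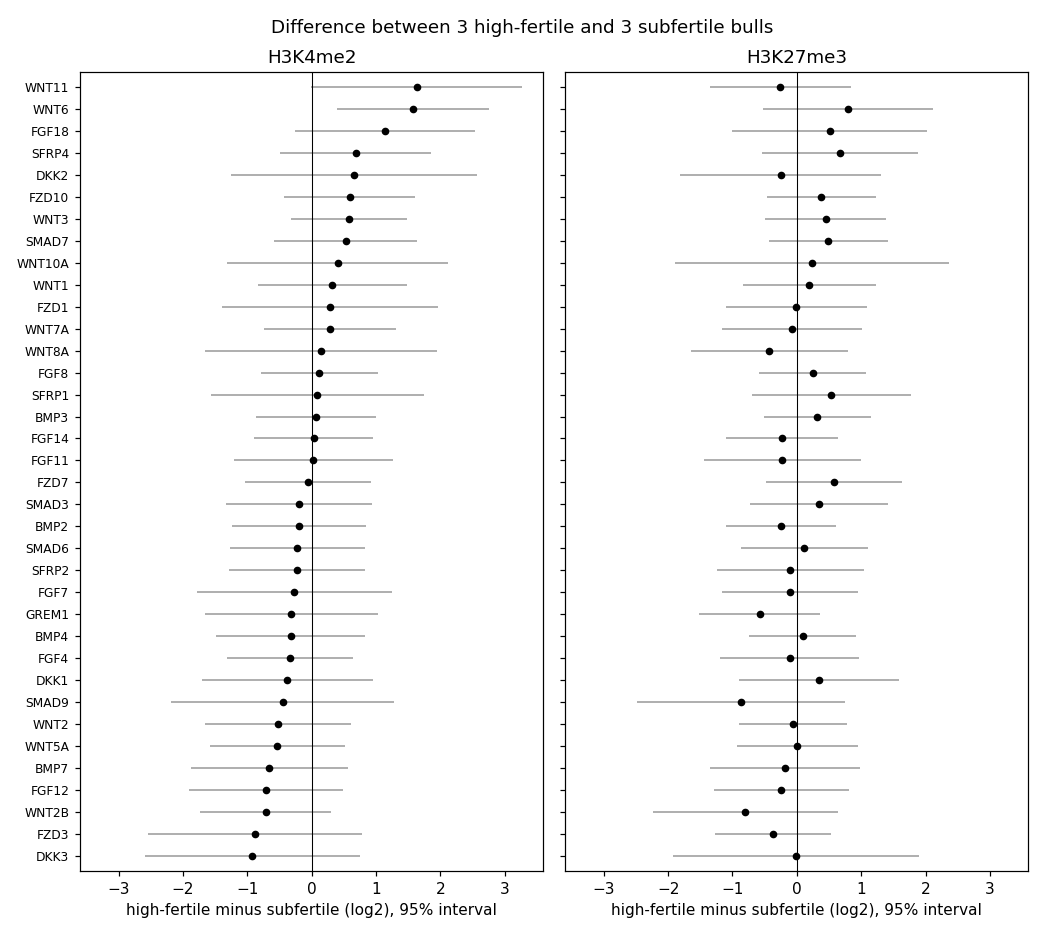
Points give the difference in mean log2(ChIP/input) between 3 high-fertile and 3 subfertile bulls (x axis, log2) for each of 36 genes (rows, ordered by the H3K4me2 difference), with limma's 95% interval. For H3K4me2 the interval of WNT6 (0.40 to 2.76) alone leaves out 0; for H3K27me3 no interval does.

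For H3K27me3, high-fertile bulls had the higher mean at 17 genes, against 50.7% of all genes, and the lower at 19, with a median difference of -0.01 (all genes 0.01). None of the 36 had an unadjusted p below 0.05, against 4.07% of all genes (2.23% higher and 1.84% lower), and none had groups that did not overlap, against 8.57% (4.56% higher and 4.01% lower). WNT6 had the highest difference, 0.79 (95% interval -0.52 to 2.11; unadjusted p 0.202), with values of 1.33, 0.45 and -0.92 in the high-fertile bulls and -0.30, -0.59 and -0.64 in the subfertile ones. Here HF5, the highest bull for H3K4me2 at WNT6, was the lowest, and between HF5 and SF1 on their shared slide the difference was -0.62. Without HF5 it was 1.40, without HF2 0.27, and with the mean input 0.23.

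GREM1 had the smallest p of the set for H3K27me3. Its values were -0.25, -1.22 and -0.72 in the high-fertile bulls and -0.52, 0.02 and 0.05 in the subfertile ones. Only SF1 lay within the high-fertile range. The difference was -0.58 (95% interval -1.52 to 0.36; unadjusted p 0.195, adjusted p 1.00). The input at GREM1 was 0.44 higher in high-fertile bulls, and with the mean input the difference was -0.08; without HF3 it was -0.34. SMAD9 differed by -0.88, but on its 2 promoter probes HF5 (-2.21) and SF5 (-1.33) were both low, as they were for H3K4me2 (-2.12 and -2.06). After correction for the G and C share of the probes, HF5 and SF5 gave -1.36 and -1.14 for H3K27me3 and -1.04 and -1.03 for H3K4me2, and the H3K27me3 difference was -0.75. Without HF5 it was -0.34 and without SF4 -0.22.

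SFRP4 was 0.67 higher and FZD7 0.58 higher in high-fertile bulls, and WNT2B was 0.80 lower; with the mean input these were -0.07, 0.76 and -0.25. FZD7 rested on HF5, at 1.03, with the others between -0.77 and 0.10. SMAD7 was 0.49, WNT3 0.45 and FZD10 0.38 higher. WNT8A, FZD3 and BMP2 were 0.43, 0.37 and 0.25 lower. The unadjusted p of these 9 genes lay between 0.238 and 0.525. Between marks, the fertility difference was larger for H3K4me2 at 19 of the 36 genes, against 47.8% of all genes, and smaller at 17, against 52.2%. The fit took all 12 arrays as separate. In it no gene of the 36 passed adjustment for this difference or had an unadjusted p below 0.05, against 0.661% of all genes. With the bull as a block, 1 of the 36 had one, WNT11, against 3.61% of all genes, and none passed adjustment. The largest gap was that of WNT11, 1.63 for H3K4me2 against -0.26 for H3K27me3, a difference of 1.89 (unadjusted p 0.0621, adjusted p 1.00; 0.0110 and 0.959 with the bull as a block).

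Single probes showed where along a gene the differences lay. Of the 1003 probes of these genes with values on all H3K4me2 arrays, 26 were higher in high-fertile bulls at an unadjusted p below 0.05 and 3 were lower, against 1.64% and 1.36% of all probes, and 0 of 176773 probes passed adjustment. FZD10 held 14 of the 26, WNT3 6 and WNT6 2; FGF8, FGF18, SMAD7 and WNT11 held 1 each, and the 3 lower ones were in WNT2. Overlapping probes share DNA, so these are not separate observations. The 14 FZD10 probes are all those of the gene within 112 bases (chr17:49447064-49447175), the run that holds the probe printed above. Chosen by their p, they averaged 0.16, 2.07 and 1.17 in the high-fertile bulls and -1.15, -1.68 and -0.59 in the subfertile ones. For H3K27me3 the same 14 probes averaged 1.21, 0.93 and 0.44 against -1.39, -0.07 and -0.29, without overlap. Having been chosen on the H3K4me2 arrays, they give no separate support in H3K27me3. The share of such runs over all probes was not computed. The arrays of both marks share each bull's input DNA, and the input over the gene was 0.45 lower in high-fertile bulls; with the mean input the gene's difference was 0.20 for H3K4me2 and -0.008 for H3K27me3, and the run itself was not recomputed. The gene means over all 47 probes overlapped between the groups in both marks.

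WNT3 fell into 2 stretches that differed from each other. The first held 37 probes over 950 bases (chr19:46849102-46850051), with H3K4me2 means of -0.18, 0.38 and 0.87 in the high-fertile bulls and -0.77, -0.94 and -1.27 in the subfertile ones. Its groups were 1.35 apart without overlap. The second held 23 probes over 781 bases (chr19:46852220-46853000), with 0.10, -0.36 and -0.69 against 0.05, -0.13 and 1.07. There the high-fertile mean was 0.65 lower and the groups overlapped. The WNT3 gene mean of 0.58 thus averages values of opposite sign. The stretches were set by probe spacing alone and examined after the gene results were known, so no test is given for them. The share of stretches without overlap was not computed. Over whole genes, 6.58% had no overlap for H3K4me2.

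**Figure D3:**
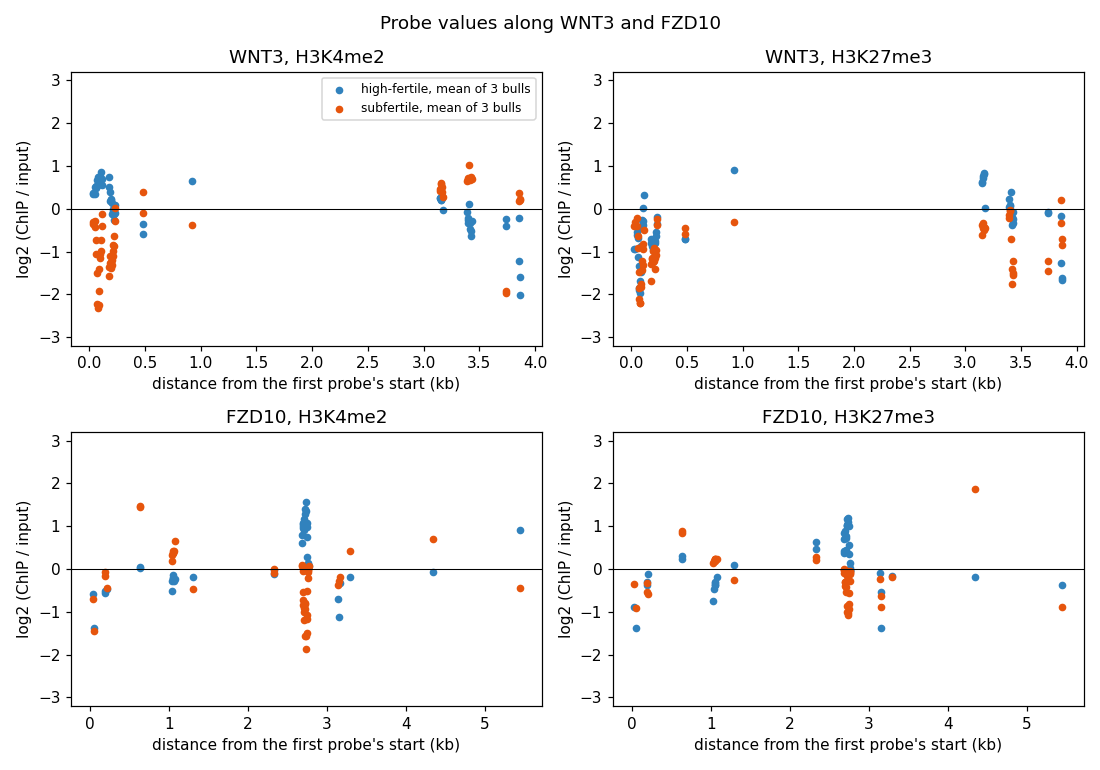
Each point is 1 probe of WNT3 (top) or FZD10 (bottom), placed by its distance from the start of the gene's first probe (x axis, kb), with log2(ChIP/input) averaged over 3 high-fertile (blue) or 3 subfertile bulls (orange) for H3K4me2 (left) and H3K27me3 (right). At WNT3 the groups part in the first stretch for H3K4me2, and at FZD10 in a narrow run of 14 probes for both marks. That run was chosen by its H3K4me2 p, and the marks share each bull's input DNA.

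The next question was how these genes stood within each mark, against the median probe. For H3K4me2, 18 genes lay above 0, against 57.8% of all genes, and 18 below, against 42.2%, and the median of the set was -0.01 (all genes 0.06). None of the 36 passed adjustment or had an unadjusted p below 0.05; 5.11% of all genes had one, 2.12% above and 3% below the median. FGF8, a ligand that patterns the limb, brain and other organ primordia, was the only gene above 0 in all 6 bulls, a pattern of 2.01% of all genes. Its values were 0.22, 0.10 and 0.44 in the high-fertile bulls and 0.05, 0.01 and 0.34 in the subfertile ones. The level was low, 0.19 ± 0.17 (SD, n = 6), and the smallest spread of any gene of the set. Its last 8 probes, in the 89 bases printed above, averaged 0.50 for H3K4me2 and 0.77 for H3K27me3, and their mean was above 0 in every bull for both marks. Its first 2 probes averaged 0.59 for H3K4me2, with SF5 at 2.83, and the 14 between averaged -0.04. The last 8 were singled out after their values were seen, and the share of such stretches over all genes was not computed.

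The highest H3K4me2 means were those of SFRP4 (0.39), FGF12 (0.28), WNT2 (0.23), SMAD6 (0.23), FGF8 (0.19) and GREM1 (0.19). The lowest were SMAD9 (-0.79), DKK3 (-0.77), WNT11 (-0.62), WNT10A (-0.32), SFRP2 (-0.30) and WNT8A (-0.30). Of the 6 lowest, 5 had 8 probes or fewer, and SFRP4 had 3. Genes of the set with 2 to 9 probes had a median SD over bulls of 1.05 for H3K4me2, against 0.50 for those with 30 or more; over all genes these were 0.71 and 0.48. The steps between neighbours in this order were smaller than the SD of either gene over the 6 bulls.

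For H3K27me3, 17 genes lay above 0, against 50.3% of all genes, and 19 below, with a median of -0.02 (all genes 0.002). WNT3, needed in the mouse embryo for formation of the primitive streak, was the only gene of the set below 0 in all 6 bulls, against 1.88% of all genes, and the only one with an unadjusted p below 0.05 (5.72% of all genes; 2.15% above and 3.57% below the median). Its values were -0.37, -0.83 and -0.27 in the high-fertile bulls and -0.45, -1.43 and -0.94 in the subfertile ones. The mean was -0.71 ± 0.44 (SD, n = 6; 95% interval -1.17 to -0.25; limma, unadjusted p 0.00678, adjusted p 0.823). Under the 16 other settings tried for it, the value stayed between -0.80 and -0.57. Of its 60 probes, 25 had an unadjusted p below 0.05 and a negative level, 24 of them in the first stretch. Those 25 stand among 65 such probes of the 36 genes' 998 tested, against 3.48% of all probes. BMP4 held 10 more, BMP2 8, FZD1 7 and SFRP2 6; 11 probes were positive, 4 of them in FGF8, against 2.03%.

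SMAD9 (-0.70), FZD1 (-0.50), WNT10A (-0.45), GREM1 (-0.44) and WNT11 (-0.39) followed WNT3 at the low end. FZD1 lay below 0 in 5 of 6 bulls, with HF5 at 0.17. At the high end stood SFRP4 (0.38), DKK2 (0.38), SMAD3 (0.33), FGF18 (0.33), FGF8 (0.28) and WNT5A (0.25). SFRP4, a frizzled-related antagonist, was highest for both marks: its 3 probes gave 1.41 for H3K4me2 and 1.42 for H3K27me3 in HF3, and -0.59 and -0.14 in SF1. WNT5A lay above 0 in 5 of 6 bulls.

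H3K4me2 was then set against H3K27me3 within each bull. H3K4me2 was higher at 22 of the 36 genes, against 59.8% of all genes, and lower at 14, against 40.2%, with a median difference of 0.03 (all genes 0.06). The main fit took the 12 arrays as separate. In it no gene of the 36 passed adjustment or had an unadjusted p below 0.05 (0.602% of all genes had one). With the bull as a block, 2 of the 36 had one, GREM1 and WNT3, against 3.82% of all genes, and none passed adjustment. No gene of the set had the same sign in all 6 bulls, while 2.44% of all genes were higher and 1.1% lower in all 6. GREM1, the BMP antagonist, had the largest positive difference. H3K4me2 exceeded H3K27me3 by 0.20, 0.80 and 1.26 in the high-fertile bulls and by 1.34 and 0.33 in SF4 and SF5, and was 0.19 lower in SF1 (-0.19). The mean was 0.62 (95% interval -0.16 to 1.41; unadjusted p 0.109; 0.0380 with the bull as a block, adjusted p 0.934). All 19 GREM1 probes are island probes within 718 bases.

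WNT3 came next, with 0.30, 0.92 and 0.54 in the high-fertile and -0.01, 0.80 and 0.56 in the subfertile bulls. SF1 was the only bull near 0. The mean was 0.52 (unadjusted p 0.0583; 0.0274 with the bull as a block, adjusted p 0.934). With that block 260 genes (3.82%) had an unadjusted p below 0.05 in place of 41, and still none passed adjustment. FZD1 (0.45), FGF12 (0.30), FZD3 (0.21) and BMP7 (0.18) followed. FZD3 and FGF12 rested on SF5, at 1.72 and 1.54.

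H3K27me3 was the higher mark at FGF18 (-0.61), DKK3 (-0.60), WNT8A (-0.46), DKK2 (-0.45), SMAD3 (-0.25) and WNT11 (-0.23). FGF18 was lower for H3K4me2 in 5 of 6 bulls, with SF4 at -2.18, and DKK3 rested on HF5 (-2.87) and SF4 (-1.64). The mean differences of the 4 BMP ligands were 0.07 to 0.18 and those of the 3 DKK genes -0.60 to -0.16, each with an interval that held 0.

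Within a bull the marks went together over these genes. Pearson's r between H3K4me2 and H3K27me3 over the 36 genes was 0.77 (HF2), 0.81 (HF3) and 0.37 (HF5) for the high-fertile bulls, and 0.89 (SF1), 0.31 (SF4) and 0.44 (SF5) for the subfertile ones; over all 6805 genes the same bulls gave 0.65, 0.80, 0.44, 0.86, 0.40 and 0.25. These are descriptions across genes, and the 2 arrays of a bull share the input DNA and the slide. The ratio moved with the input signal on some arrays: over the 36 genes r between the H3K4me2 ratio and the input was -0.69 in HF3 and -0.59 in SF1 but 0.56 in SF5. The input enters the ratio as its divisor, so a negative r can arise by construction. In HF3 the genes with high ratios had low input: WNT10A, DKK2, WNT8A and WNT11 had inputs of -2.72, -1.95, -1.85 and -1.52 and H3K4me2 ratios of 1.70, 2.27, 0.98 and 1.78.

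**Figure D4:**
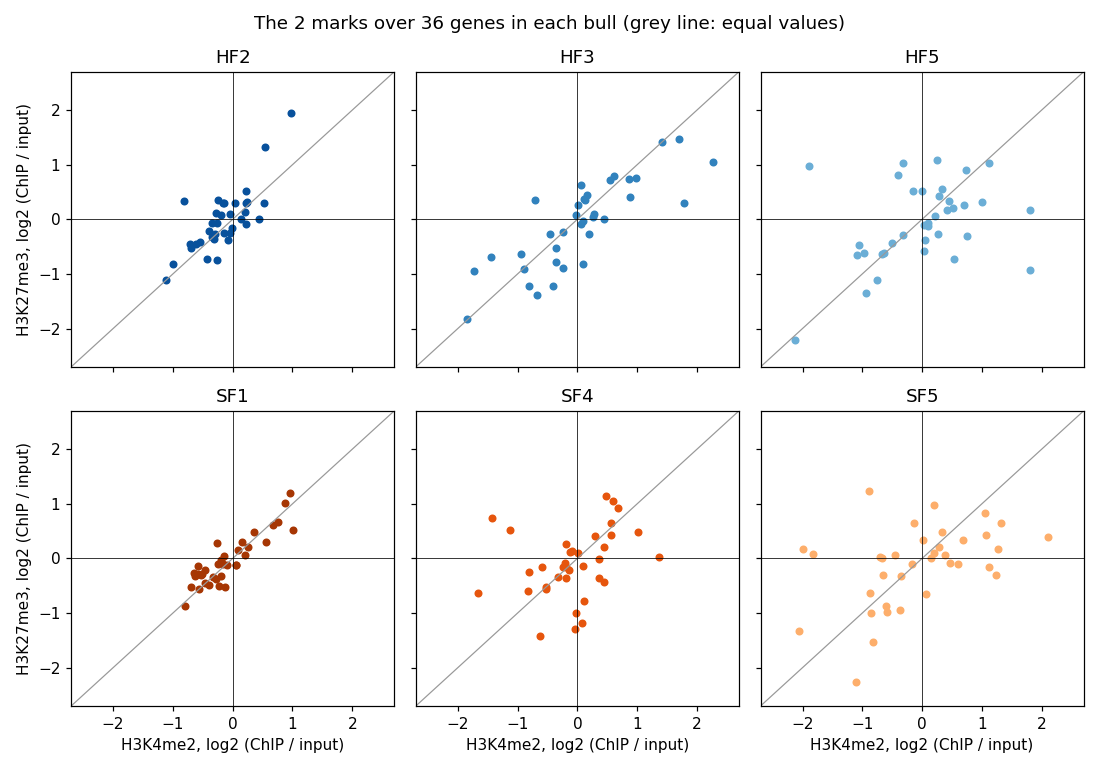
Each panel is 1 bull and each point 1 of the 36 genes, with the H3K4me2 value on the x axis and the H3K27me3 value on the y axis, both log2(ChIP/input); the grey line marks equal values. Points lie along the line in SF1 (r 0.89), HF3 and HF2 and scatter more in SF4 (r 0.31), HF5 and SF5.

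**Figure D5:**
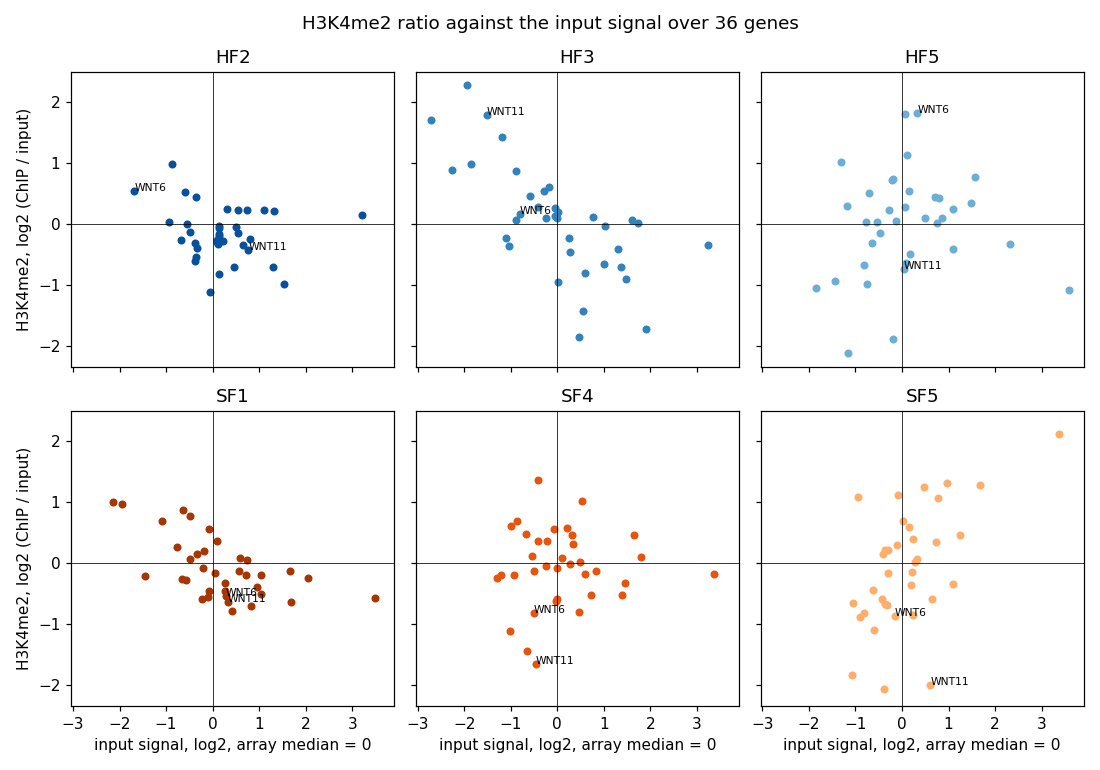
Each panel is 1 bull and each point 1 of the 36 genes, with the input signal on the x axis (log2, array median at 0) and the H3K4me2 value on the y axis (log2(ChIP/input)); WNT6 and WNT11 are named. The ratio is higher where the input is lower in HF3 (r -0.69) and SF1 (r -0.59), and the reverse in SF5 (r 0.56).

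The extremes were shared unevenly between bulls. For H3K4me2, SF5 held the highest or lowest value of 17 of the 36 genes, HF3 of 15 and HF5 of 13, while HF2 held 7. For H3K27me3, HF5 held 19 and HF3 14. The SD over the 36 genes was 0.96 in SF5 and 0.91 in HF3 for H3K4me2 and 0.44 in HF2. The same bulls had wide values over all genes (1.08 and 0.91 in SF5 and HF3, 0.50 in HF2). Over bulls, the SD of the median gene of the set was 0.60 for H3K4me2 and 0.53 for H3K27me3, against 0.64 and 0.60 over all genes.

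Of the pairs of neighbouring genes, WNT6 and WNT10A have their nearest probes 18363 bases apart on chromosome 2 in cattle. No protein-coding gene lies between these genes in the buffalo table. WNT10A gave H3K4me2 values of -1.12, 1.70 and -0.93 in the high-fertile bulls and -0.26, -0.20 and -1.10 in the subfertile ones. HF3 was its highest bull, whereas HF5 was the highest at WNT6. SMAD6 and SMAD3, also neighbours in the buffalo table, have their nearest probes 298611 bases apart on chromosome 10. These genes differed in sign between marks: SMAD3 was 0.25 lower for H3K4me2 than for H3K27me3 (-0.25) and SMAD6 0.17 higher. FGF14 showed the same unevenness within 1 gene. Its first 5 probes (chr12:76055955-76056036) gave 2.34 in HF3 and -1.11 in HF5 for H3K4me2, while its 13 probes at chr12:76540684-76541107 gave -0.28 and 0.66.

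Of 101 other genes listed for these pathways, 55 were measured and none passed adjustment in any comparison. For H3K4me2, high-fertile bulls had the higher mean at 28 and the lower at 27, with a median of 0.01, and 2 of 55 had an unadjusted p below 0.05, near the 2.91% of all genes. SPRY1, an antagonist of FGF receptor signalling, was 1.44 lower (-1.44; unadjusted p 0.0287), and ID1, a transcriptional target of BMP signalling, was 1.16 higher (unadjusted p 0.0354). DVL2, a relay of frizzled signals, and DTX1, a regulator of NOTCH signalling, were 0.79 and 0.88 higher; HEY1, a NOTCH target, and FST, which binds activins and BMPs, gave -0.92 and -0.76. For H3K27me3, the mean was higher at 33 and lower at 22, with a median of 0.08, and none had an unadjusted p below 0.05, against 4.07% of all genes; ID1, DVL2 and MAML2 gave 0.70, 0.74 and 0.88, and HEYL, SPRY1 and CTNNB1 (β-catenin) gave -0.59, -0.70 and -0.67. H3K4me2 exceeded H3K27me3 at 41 of the 55, against 59.8% of all genes, with a median difference of 0.11 against 0.06 over all genes. Against the array median, 5.45% of the 55 had an unadjusted p below 0.05 for H3K4me2 (5.11% of all genes), 2 above and 1 below. For H3K27me3 it was 10.9% (5.72% of all genes), 1 above and 5 below. DLL3, a divergent NOTCH ligand named after its values were seen, had the smallest p of the list in either mark. Its mean was 0.89 for H3K4me2 (limma, unadjusted p 0.00184, adjusted p 0.806) and 0.93 for H3K27me3 (unadjusted p 0.00390, adjusted p 0.823).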

How the data were processed

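The members and gene lists were chosen with earlier results of these data known. The authors made the intensity values of both colours, and flags of 0 or 1 per spot, in Agilent Feature Extraction (10.7 per the submitters' processing notes, 10.7.3.1 per the file headers), background-subtracted and dye-normalized. The deposited table, an alternative, gives log2 ratios whose centring is unstated; its columns correlated at 0.741 to 0.995 with the ratios used here, medians -0.13 to 0.10. Per the labels' protocols, chromatin was cross-linked, digested with micrococcal nuclease, precipitated, and amplified by linker-mediated PCR.

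Of 177440 non-control probes, 177372 were kept, whose input passed the background flag on 6 or more of the 12 arrays; 13 to 546 outlier spots per array were set missing. Log2 ratios were centred on the array median and averaged over at least 2 probes per gene (6805 of 9328 symbols; 2522 have 1 probe). All tests used limma 3.58.1 (R 4.3.3; two-sided, Benjamini-Hochberg over all genes, threshold 0.05); scripts were tested on simulated data. No column was left unmapped. Named were, per fertility comparison, the 6 genes of smallest p in each direction; per mark and between marks, the 6 highest and 6 lowest means; GREM1; neighbouring members; and in fertility comparisons the 3 pathway genes of smallest p per direction. Other members, single probes, stretches and bulls named were chosen after their values were seen. Equal bull numbers within a fertility group mean the same bull: deviations from group means correlated between its 2 arrays at 0.32 to 0.75 (at most 0.18 between bulls), and the inputs at 0.937 or more. HF5 and SF1 shared a slide; every other slide held 1 bull, so slide and bull cannot otherwise be told apart.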

Additional observations from a re-analysis of the deposited data

Results flagged for a closer look

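WNT11 was the only gene of the 36 whose mark difference had one sign in all bulls of a group and the other sign in all bulls of the other, a pattern of 3.22% of all genes. H3K4me2 minus H3K27me3 was 0.29, 1.49 and 0.37 in HF2, HF3 and HF5 and -0.32, -1.03 and -2.17 in SF1, SF4 and SF5. The test of that difference between groups gave 1.89 (limma, unadjusted p 0.0621, adjusted p 1.00). With the bull as a block the p was 0.0110 unadjusted and 0.959 adjusted, and 3.61% of all genes had an unadjusted p below 0.05. WNT11 was picked by these same values, so the p gives no separate support. A count of 1 in 36 lies near the 3.22% of all genes. Groups of 3 bulls were too small to test for single outlying samples.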

How the results depend on the processing

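No gene of the 36, and none of all genes, passed adjustment in any comparison under any alternative fitted; the lowest adjusted p of any gene of the set was 0.253. With the bull as a replicate block the difference between marks was unchanged in value, no call changed, and unadjusted p values below 0.05 went from 41 to 260 genes between the marks and from 45 to 246 for the difference between marks in the fertility difference. The median H3K27me3 fertility difference, -0.01, was 0.0901 with at least 5 probes per gene, 0.19 within the shared slide (HF5 minus SF1), and -0.00265 to 0.0800 when single bulls were left out. WNT6 kept its H3K4me2 sign throughout (0.97 to 2.34), with unadjusted p of 0.0563 (loess within arrays), 0.0599 (deposited table) and 0.237 with the mean input.

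Of 989 alternative values for 60 named results, 15 changed sign. With the mean input of the 6 bulls, DKK3 H3K4me2 was 0.34, and SFRP4 and FZD10 H3K27me3 were -0.0732 and -0.00776; 13 of 36 H3K27me3 signs turned there. Within the shared slide, WNT11, FGF18 and FGF12 H3K4me2 were -0.11, -0.52 and 0.33, and WNT6 H3K27me3 was -0.62. The H3K4me2 level of WNT2 was -0.0108 with loess within arrays and -0.0128 from the deposited table, and that of GREM1 -0.0919 with the median of probes. When single bulls were left out, the mark difference ranged from -0.0325 (without SF4) to 0.349 for BMP7, from -0.0989 (without SF5) to 0.407 for FZD3 and from -0.442 to 0.0198 (without SF5) for WNT11. The H3K4me2 level ranged from -0.0493 (without SF4) to 0.363 for GREM1 and from -0.558 to 0.00372 (without SF5) for WNT8A; the causes were not tested. Slide as a random block could not be fitted on 6 arrays; fitted over all 12, an alternative chosen after seeing the data, its consensus correlation was 0.48 and it called no gene.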
